A study of Homo sapiens with 9 samples.

Results

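To describe how residual tumors expressed the genes that start and restrain plasminogen activation and coagulation, 9 genes were followed by symbol through the count tables of PC3 xenografts: PLAU, PLAT, PLAUR, ANXA2, SERPINE2, SERPINB2, F3, TFPI and TFPI2. All 9 were listed in both tables, out of 16008 genes that the tables share. They were selected on measured values, namely their levels and changes in these same libraries, so those values are given as a description and without p-values. PC3 is an androgen-insensitive human prostate cancer cell line, established from a metastasis and lacking p53. Cells were grown under the skin of male NSG mice, immunodeficient hosts that lack functional lymphocytes but keep their own blood vessels, fibroblasts, macrophages and muscle. There were 3 libraries each from hosts that received PBS as vehicle, P-DXd and T-DXd, and tumors were taken when the experiment ended. P-DXd (patritumab deruxtecan) is an antibody-drug conjugate directed at HER3, T-DXd (trastuzumab deruxtecan) is directed at HER2, and both release deruxtecan, a topoisomerase I inhibitor. The conjugates were dosed at 5 mg/kg. Per the series record, hosts were 11 weeks old, dosing began at 90 mm3 and ran for 5 weekly cycles, whereas the study's methods state different ones. The title and the treatment field of each of the 6 treated samples disagree on the conjugate, so groups carry the names P-DXd-titled and T-DXd-titled. The headers of the count columns name the conjugates as the titles do. Which conjugate either group received is unresolved.

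Plasminogen is a circulating proenzyme that activators cleave to plasmin, a protease that dissolves fibrin and loosens extracellular matrix. Urokinase (PLAU) does this at cell surfaces, where its receptor (PLAUR) holds it, whereas tissue-type activator (PLAT) acts mainly on fibrin, and serpins trap and inactivate both enzymes. Coagulation is started by tissue factor (F3), a transmembrane receptor for factor VIIa, and TFPI blocks that complex. Tumor cells of many carcinomas express both systems, and urokinase is a familiar product of PC3 cells.

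Reads totalled between 54481702 and 125538606 counts per library, and every PBS library was deeper than every treated one. Levels are given as CPM, counts scaled to library sizes adjusted by the trimmed mean of M values (TMM). PBS replicate 1 stood apart from the other vehicle libraries: the chi-square statistic of its counts was 333 and 412 per gene against PBS replicates 2 and 3, compared with 39.5 between those 2. Results that rest on it are therefore given with and without it. The summed level of 8 skeletal muscle genes was 3205 CPM in P-DXd-titled replicate 2, between 54.1 and 194 CPM in the other treated libraries and at most 32.0 CPM in PBS. Fibroblast genes summed to 2062 CPM in PBS replicate 1, against 1058 to 1141 CPM in the other PBS libraries and 1226 to 2226 CPM after treatment. Collagen genes made up most of that sum in PBS replicate 1: COL1A1 had 1429, COL1A2 430 and COL3A1 180 CPM, whereas DCN had 0.398 CPM. The epithelial list (KRT8, KRT18, KRT19, EPCAM, CD44 and VIM) summed to 2425 to 3312 CPM in PBS and 3856 to 4442 CPM in treated tumors. Its genes did not move together. KRT8, KRT18, KRT19 and EPCAM had higher means in treated tumors. CD44 was lower (mean 823 CPM in PBS and 712 CPM in treated tumors) and VIM was similar (322 and 330 CPM). Of the 4 luminal prostate markers KLK3 was not listed, and the other 3 summed to 13.6 to 24.9 CPM. The tables do not say whether mouse reads that align to human genes were removed, and in bulk tumors fewer cells of a type cannot be told apart from less RNA per cell.

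To show what lies next to the start sites of these genes, 250 bases upstream of each RefSeq start were searched for short motifs of common promoter factors. The windows come from RefSeq on GRCh38.p14, where 8 of the 9 genes had at least 1 window; PLAT was not matched. The AP-1 motif TGANTCA, which is its own reverse complement, was present in 5 of the 8 genes (F3, TFPI2, SERPINB2, PLAUR and ANXA2) and in 6.57% of 35116 upstream windows. The 3 genes with the largest falls after treatment are shown first, then PLAUR and ANXA2, which hold the same motif but differed little between groups, and last TFPI, which rose and had none. PLAU, which also fell, and SERPINE2, which was not called, had no AP-1 motif in either of their 2 windows and are not shown. Capitals mark AP-1 motifs and the TATA box TATAAA, on either strand.
F3 (chr1:94541760-94542009, minus strand): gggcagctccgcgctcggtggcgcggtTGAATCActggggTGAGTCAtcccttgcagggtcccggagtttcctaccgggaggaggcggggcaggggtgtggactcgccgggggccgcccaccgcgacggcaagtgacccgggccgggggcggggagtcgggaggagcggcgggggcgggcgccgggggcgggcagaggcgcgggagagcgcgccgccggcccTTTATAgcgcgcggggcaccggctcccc
TFPI2 (chr7:93890754-93891003, minus strand): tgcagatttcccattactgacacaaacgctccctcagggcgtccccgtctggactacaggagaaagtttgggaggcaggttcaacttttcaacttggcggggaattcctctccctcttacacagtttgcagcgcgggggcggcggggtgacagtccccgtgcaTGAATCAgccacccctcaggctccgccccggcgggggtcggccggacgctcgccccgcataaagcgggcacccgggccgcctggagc
SERPINB2 (chr18:63887455-63887704, plus strand): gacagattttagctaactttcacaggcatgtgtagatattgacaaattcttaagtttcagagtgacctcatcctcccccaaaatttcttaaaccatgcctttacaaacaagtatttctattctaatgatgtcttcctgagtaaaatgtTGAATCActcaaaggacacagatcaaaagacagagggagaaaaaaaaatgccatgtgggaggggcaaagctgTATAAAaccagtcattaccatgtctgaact
PLAUR (chr19:43670170-43670419, minus strand): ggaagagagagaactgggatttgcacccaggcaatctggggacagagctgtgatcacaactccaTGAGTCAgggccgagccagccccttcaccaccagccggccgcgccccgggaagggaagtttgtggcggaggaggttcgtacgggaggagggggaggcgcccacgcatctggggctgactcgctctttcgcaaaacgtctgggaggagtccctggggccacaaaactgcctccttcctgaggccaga
ANXA2 (chr15:60397987-60398236, minus strand): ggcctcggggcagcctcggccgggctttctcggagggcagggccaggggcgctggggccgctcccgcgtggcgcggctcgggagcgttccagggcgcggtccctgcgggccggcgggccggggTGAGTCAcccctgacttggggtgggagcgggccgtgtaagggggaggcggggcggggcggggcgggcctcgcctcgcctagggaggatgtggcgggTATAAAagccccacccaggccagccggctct
TFPI (chr2:187554436-187554685, minus strand): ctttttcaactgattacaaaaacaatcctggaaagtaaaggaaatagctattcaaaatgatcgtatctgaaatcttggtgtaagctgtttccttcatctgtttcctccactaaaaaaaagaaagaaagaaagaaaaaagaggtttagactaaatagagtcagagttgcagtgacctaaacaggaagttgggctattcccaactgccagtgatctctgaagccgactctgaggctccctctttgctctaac

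The F3 window held 2 AP-1 motifs, at 223 to 217 and 210 to 204 bases before the start, and each of the other 4 genes held 1. TATAAA was found in F3, SERPINB2 and ANXA2, at 31 to 23 bases before the start, and in 10.7% of all windows. GC boxes (GGGCGG, both strands) were found in 5 of the 8 genes, F3, SERPINE2, TFPI2, PLAU and ANXA2, and in 42.6% of all windows. The EGR motif GCGNGGGCG was present in F3, TFPI2 and PLAUR and in 8.41% of windows, and in F3 and TFPI2 it overlapped a GC box. CCAAT was found in SERPINE2 and PLAU (32.0% of windows), an NF-kB motif in TFPI2 alone (9.96%), and the ETS motif CCGGAA in none of the 8 (14.5%). Letters in a window are a description of sequence, and these motifs were searched with the levels of the 9 genes known. A shorter form of the TATA box was also tried, and the EGR motif was widened from a stricter form after the first matches were seen.

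The question for the treated tumors was which of the 9 genes differed from vehicle and by how much. F3, SERPINB2, TFPI2, PLAU and PLAT were lower in all 6 treated libraries than in any PBS library, TFPI was higher in all 6, and PLAUR and ANXA2 overlapped between groups. In this report a gene is called when an edgeR quasi-likelihood fit over all genes gave a Benjamini-Hochberg adjusted p of at most 0.05 and a fold change of at least 1.5. With all 6 treated libraries against PBS, 6 of the 9 were called, TFPI as higher and the other 5 as lower, where 15.2% of 15070 genes tested were called higher and 17.1% lower. The same 6 did not overlap between the sides, as did 50.5% of all genes. P-DXd-titled tumors had 1 called higher and 4 called lower (background 11.2% and 13.8% of 14945 genes), T-DXd-titled tumors 1 and 5 (background 13.1% and 15.5% of 14915 genes), and the gene that differed between these counts was TFPI2. Groups did not overlap for 6 genes in the first comparison (background 55.2%) and for 7 in the second (background 61.3%). Without PBS replicate 1, 6 were called in each of the 3 comparisons. Leaving out P-DXd-titled replicate 1, 2 or 3 reduced the count of that group to 3, 3 and 2, while 6 were called over all treated libraries without the muscle-rich P-DXd-titled replicate 2. Fits with a library left out rest on fewer libraries, and the share of all genes called in them was not determined. Because the genes were picked knowing these contrasts and both use the same PBS libraries, nothing is read from the counts.

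**Figure D1:**
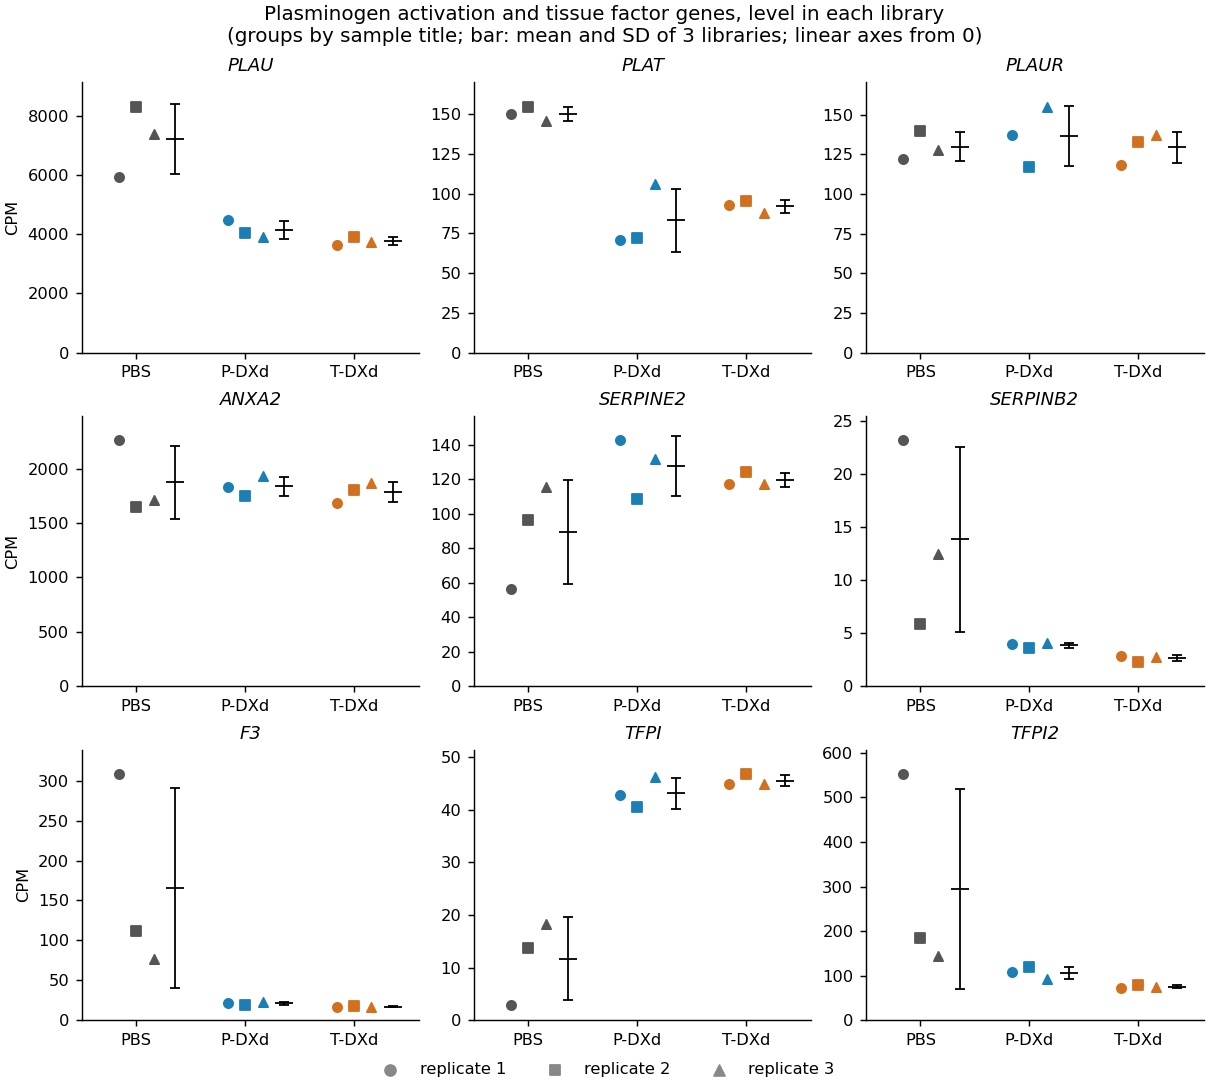
Level of each of the 9 genes in every library, in CPM on linear axes that start at 0, with groups by sample title along the x axis. Symbols are the replicates, and the bar beside them is the mean and SD of 3 libraries. F3, TFPI2 and SERPINB2 were highest in PBS replicate 1 and lower in all treated libraries, TFPI showed the opposite order, and PLAUR and ANXA2 overlapped between groups.

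Among the activators, PLAU (chr10:75668935-75677255 as listed, on a build the tables do not name) was by far the most abundant of the 9 genes. Its level was 5939, 8304 and 7393 CPM in PBS, 4480, 4030 and 3918 CPM in P-DXd-titled and 3635, 3903 and 3743 CPM in T-DXd-titled libraries. Every treated library was below every PBS library, and the treated values lay close together. The fall was 1.83-fold over all treated libraries (log2 fold change -0.87 ± 0.11 SE, n = 6 against 3), -0.79 ± 0.15 for P-DXd-titled and -0.94 ± 0.14 for T-DXd-titled tumors, and it was -0.98 without PBS replicate 1. PLAU overlaps C10orf55, which had 15.9 to 26.1 CPM; since strand use in counting is not stated, reads of the shared stretch cannot be told apart. Without P-DXd-titled replicate 3 PLAU was no longer called in that group (log2 fold change -0.74).

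PLAT (chromosome 8), the tissue-type activator, was the steadiest of the falling genes within PBS. It had 150.3, 154.6 and 145.6 CPM in PBS, 70.7, 72.3 and 106 CPM in P-DXd-titled and 93.0, 95.5 and 87.5 CPM in T-DXd-titled libraries. No treated library reached the lowest PBS value, and P-DXd-titled replicate 3 was the highest of the treated ones. The log2 fold change was -0.84 ± 0.17 in P-DXd-titled, -0.71 ± 0.08 in T-DXd-titled and -0.78 ± 0.12 in all treated tumors, and leaving out PBS replicate 1 gave -0.77.

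The surface proteins that gather these enzymes were not called in any comparison. PLAUR (chr19:44150247-44174699) encodes the urokinase receptor, and its level was 122, 139.8 and 128 CPM in PBS, 138, 117 and 155 CPM in P-DXd-titled and 119, 133 and 138 CPM in T-DXd-titled libraries. The groups overlapped throughout, and the difference between all treated tumors and PBS was 0.04 on the log2 scale (95% interval -0.17 to 0.25). ANXA2 (chr15:60639333-60695082), a membrane-binding protein that with S100A10 forms a docking site for plasminogen and PLAT, had 2259, 1652 and 1710 CPM in PBS and between 1685 and 1931 CPM in the 6 treated libraries. PBS replicate 1 was the highest of all 9, PBS replicate 2 lay below the treated range, and PBS replicate 3 lay within it near its lower end. Its log2 difference was -0.05 (95% interval -0.27 to 0.18) and became 0.12 without PBS replicate 1. Reads of ANXA2 can be shared with its processed pseudogenes, so its level is uncertain to that extent.

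The inhibitors of the activators differed among themselves. SERPINE2 (chr2:224839829-224904036), protease nexin-1, inhibits thrombin, urokinase and plasmin. It had 56.6, 96.7 and 115 CPM in PBS, 143, 109 and 132 CPM in P-DXd-titled and 117, 124 and 117 CPM in T-DXd-titled libraries. T-DXd-titled libraries were all just above the highest PBS library, P-DXd-titled replicate 2 was below it, and PBS replicate 1 was the lowest of the 9. The log2 fold change was 0.46 ± 0.18 in all treated tumors and was not called. It was 0.23 without PBS replicate 1, and 0.69, past the limits, without PBS replicate 3.

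SERPINB2 (chr18:61538926-61571124), plasminogen activator inhibitor 2, inhibits urokinase and is mostly kept inside the cell. Its level was 23.2, 5.89 and 12.5 CPM in PBS, 3.95, 3.58 and 4.08 CPM in P-DXd-titled and 2.85, 2.34 and 2.74 CPM in T-DXd-titled libraries. All treated libraries were below the lowest PBS value, but the PBS libraries spread 3.93-fold. The fall was 4.25-fold over all treated libraries (log2 fold change -2.09 ± 0.33), with -1.82 ± 0.45 for P-DXd-titled and -2.39 ± 0.47 for T-DXd-titled tumors. Without PBS replicate 1 it was -1.49 in all treated tumors. The call in P-DXd-titled tumors was lost when any of the 3 P-DXd-titled libraries was left out (log2 fold changes -1.85 to -1.76). SERPINB10, which overlaps SERPINB2 in the tables, was at most 0.228 CPM.

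F3 (chr1:94994781-95007356), tissue factor, showed the largest change of the 9. It had 308, 112 and 76.6 CPM in PBS, 21.5, 19.2 and 22.7 CPM in P-DXd-titled and 16.8, 17.1 and 16.1 CPM in T-DXd-titled libraries. The lowest PBS library was more than 3 times the highest treated library. The fall was 8.76-fold over all treated libraries (log2 fold change -3.13 ± 0.33), -2.95 ± 0.50 for P-DXd-titled and -3.31 ± 0.51 for T-DXd-titled tumors. Leaving out PBS replicate 1 gave -2.31 on the log2 scale over all treated libraries, and F3 stayed called under each of the other fits.

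The inhibitors of the tissue factor pathway moved in opposite directions. TFPI (chr2:188328957-188430487), a Kunitz-type inhibitor that blocks factor Xa and the tissue factor complex, had 2.91, 13.8 and 18.4 CPM in PBS, 42.7, 40.4 and 46.2 CPM in P-DXd-titled and 44.9, 46.8 and 44.9 CPM in T-DXd-titled libraries. Treated libraries fell in a narrow band, 1.16-fold from lowest to highest, all above the PBS libraries, which spanned 6.32-fold. The rise was 3.79-fold (log2 fold change 1.92 ± 0.42), and 1.47 on the log2 scale without PBS replicate 1. In the comparisons of 3 against 3 the rise was 1.89 ± 0.56 and 1.96 ± 0.57. Those calls were lost without PBS replicate 2 (2.02 and 2.09) and without any 1 of the treated libraries (1.85 to 1.98).

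TFPI2 (chr7:93514709-93520303) encodes a related Kunitz-type protein that inhibits plasmin and other serine proteases of the matrix. It had 552, 186 and 144 CPM in PBS, 109, 119 and 92.4 CPM in P-DXd-titled and 72.6, 79.0 and 74.5 CPM in T-DXd-titled libraries. Each treated library was below each PBS library, and P-DXd-titled values were all above T-DXd-titled ones. The fall was 3.23-fold over all treated libraries (log2 fold change -1.69 ± 0.35), and without PBS replicate 1 it was -0.85. It was -1.96 ± 0.49 in T-DXd-titled tumors and -1.44 ± 0.48 in P-DXd-titled tumors, where it was not called. Leaving out PBS replicate 1 took the P-DXd-titled value to -0.62 and past the limits, and leaving out any T-DXd-titled library lost the call in that group (-1.99 to -1.93). GNGT1, which overlaps TFPI2, was at most 0.409 CPM.

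**Figure D2:**
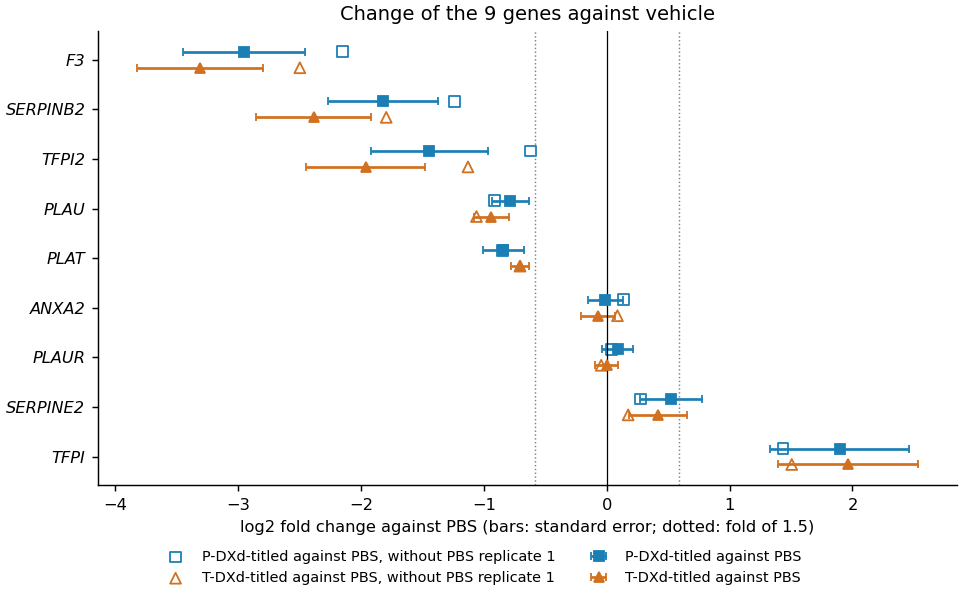
Log2 fold change of the 9 genes against PBS on the x axis, for P-DXd-titled tumors (squares) and T-DXd-titled tumors (triangles). Bars are standard errors, open symbols are the same fit without PBS replicate 1, and dotted lines mark a fold of 1.5. Open symbols of F3, SERPINB2, TFPI2 and TFPI lie nearer to 0 than filled ones, those of PLAU lie farther, and the shared PBS libraries enter both comparisons.

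Several of these genes also spread widely among the vehicle tumors. PBS replicate 1 stood apart over all genes, as given above, so such spread is not particular to them. PBS replicate 1 was 3.27 times the mean of PBS replicates 2 and 3 for F3, 3.35 times for TFPI2 and 2.52 times for SERPINB2, and 0.181 times for TFPI and 0.534 times for SERPINE2. For these 5 genes PBS replicate 1 thus lay on the side away from the treated tumors, whereas for PLAU, at 0.757 times, it lay toward them. The coefficient of variation in PBS was 75.4% for F3, 76.3% for TFPI2, 68.0% for TFPI and 63.0% for SERPINB2. Within P-DXd-titled tumors the same genes varied by 8.58%, 12.6%, 6.75% and 6.70%, and within T-DXd-titled tumors by 3.02%, 4.31%, 2.34% and 10.2%. The part of the higher fibroblast and lower epithelial sums of PBS replicate 1 in these values was not tested.

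To compare levels between genes, CPM was divided by the exonic length of each gene in GENCODE v44, the union of exons over all annotated transcripts. That length was 2.95 kb for PLAU, 2.89 kb for F3 and 2.44 kb for TFPI2. It was 11.6 kb for ANXA2, 11.7 kb for TFPI and 8.96 kb for SERPINE2. A union can exceed the transcript expressed, so the order below also depends on this divisor. Before division the PBS mean was 7212 CPM for PLAU and 1873 CPM for ANXA2. In PBS tumors PLAU had 2446 ± 404 CPM per kb (SD, n = 3), above 99.98% of the genes in the tables. ANXA2 followed at 162 ± 28.9, TFPI2 at 120 ± 91.9, F3 at 57.4 ± 43.2 and PLAUR at 29.1 ± 2.05 CPM per kb. Libraries of ANXA2 and TFPI2, of TFPI2 and F3, and of F3 and PLAUR overlapped, so the order within each of these neighbouring pairs does not exceed the spread. PLAT had 19.3 ± 0.58, SERPINE2 9.999 ± 3.35, SERPINB2 5.06 ± 3.18 and TFPI 1.00 ± 0.68 CPM per kb, and SERPINE2 overlapped SERPINB2. In P-DXd-titled tumors F3 was seventh at 7.32 ± 0.63 CPM per kb, below SERPINE2 at 14.3 ± 1.93 and PLAT at 10.7 ± 2.58, and SERPINB2 was last at 1.41 ± 0.09, below TFPI at 3.68 ± 0.25. T-DXd-titled tumors had the same order of means, with F3 at 5.78 ± 0.17, TFPI at 3.89 ± 0.09 and SERPINB2 at 0.96 ± 0.10 CPM per kb. Libraries of SERPINE2 and PLAT overlapped in P-DXd-titled tumors, and those of TFPI2 and PLAUR overlapped in T-DXd-titled tumors. The order within these pairs does not exceed the spread there. PLAU remained first in both, at 1405 ± 101 and 1275 ± 45.7 CPM per kb.

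P-DXd-titled tumors were next compared with T-DXd-titled tumors. None of the 9 genes was called between them by edgeR or by DESeq2, and 0.0273% of the 14653 genes tested were called by edgeR (24 genes by DESeq2). Libraries of the 2 groups did not overlap for 4 of the 9 genes (background 8.09%): SERPINB2, PLAU, TFPI2 and F3, each higher in P-DXd-titled tumors. The log2 difference was 0.55 for SERPINB2 (95% interval 0.16 to 0.94), 0.50 for TFPI2 (0.30 to 0.71), 0.34 for F3 (0.14 to 0.54) and 0.14 for PLAU (-0.04 to 0.32). These intervals are not adjusted for the number of genes and belong to genes picked on their values, so no conjugate difference is read from them. Without P-DXd-titled replicate 3, TFPI2 was called, with a log2 difference of 0.60. For the remaining genes the intervals were -0.45 to 0.16 for PLAT, -0.24 to 0.09 for TFPI, -0.11 to 0.31 for SERPINE2, -0.15 to 0.31 for PLAUR and -0.13 to 0.22 for ANXA2.

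The other genes of the plasminogen system were examined as a list of 19, of which 16 were in the tables and 14 were tested. This list and those below were chosen with earlier results of these data known. The adjusted p-values printed for their genes are therefore a description. In all treated tumors against PBS 2 of the 14 were called higher, where 15.2% of all genes tested were. The median log2 fold change was 0.00 against -0.01 for all genes tested. The 2 genes that rose were ST14, the membrane protease matriptase, at 0.74 ± 0.18 (edgeR adjusted p = 0.0057), and SERPINF2, the plasmin inhibitor alpha-2-antiplasmin, at 0.59 ± 0.16 (edgeR adjusted p = 0.0090). ST14 dropped below the fold limit without PBS replicate 1 (0.50), and SERPINF2 without PBS replicate 2 (0.56) or without T-DXd-titled replicate 3 (0.55). With each conjugate group fitted alone against PBS, ST14 was not called in T-DXd-titled and SERPINF2 was not called in P-DXd-titled tumors.

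The plasminogen receptors and clearance receptors were not called. PLGRKT, a plasminogen receptor, had a log2 fold change of 0.48 ± 0.10 (edgeR adjusted p = 0.0022) and S100A10, the partner of ANXA2, of -0.31 ± 0.07 (edgeR adjusted p = 0.0030), both under the fold limit. LRP1, the endocytic receptor that clears serpin-bound activators, had -0.55 ± 0.32 (edgeR adjusted p = 0.16) and was called, at -0.96, without PBS replicate 1; it overlaps STAT6 in the tables. VLDLR, named after its values were seen, had 22.9 CPM in P-DXd-titled replicate 2 and 0.286 to 1.21 CPM in the other 8 libraries. That is the library with the high muscle sum, and the part of muscle in this value was not tested. PLG, which encodes plasminogen itself, was not listed and not analysed here.

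Of 26 other coagulation genes 18 were listed and 15 were tested. Of these, 2 were called higher, 1 was called lower and 12 were not called. Among all genes tested 15.2% were called higher and 17.1% lower. The median log2 fold change was 0.22, against -0.01 for all genes tested. PROCR, the endothelial protein C receptor, had 67.2, 34.4 and 28.8 CPM in PBS, 21.9, 19.2 and 21.8 CPM in P-DXd-titled and 18.9, 22.3 and 22.2 CPM in T-DXd-titled libraries. Its log2 fold change was -1.04 ± 0.21 (edgeR adjusted p = 0.0019), and -0.58, under the fold limit, without PBS replicate 1, and its reads may be shared with EDEM2, which it overlaps. PROS1, protein S and a cofactor of both protein C and TFPI, had 4.58, 11.4 and 10.5 CPM in PBS, 16.8, 15.3 and 17.3 CPM in P-DXd-titled and 18.1, 19.1 and 17.8 CPM in T-DXd-titled libraries. It rose by 0.98 ± 0.24 on the log2 scale (edgeR adjusted p = 0.0052), and by 0.68 without PBS replicate 1, the lowest library. PROS1 was not called in P-DXd-titled tumors alone against PBS. The other gene that rose was F13A1, a subunit of the fibrin-crosslinking factor XIII, named here after its values were seen, at 1.88 ± 0.62 (edgeR adjusted p = 0.023). Its level was low, at 0.239, 0.133 and 0.205 CPM in PBS, 0.143, 0.514 and 0.700 CPM in P-DXd-titled and 0.730, 1.56 and 0.594 CPM in T-DXd-titled libraries. P-DXd-titled replicate 1 lay within the PBS range, and F13A1 was not called in P-DXd-titled tumors alone against PBS.

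**Figure D3:**
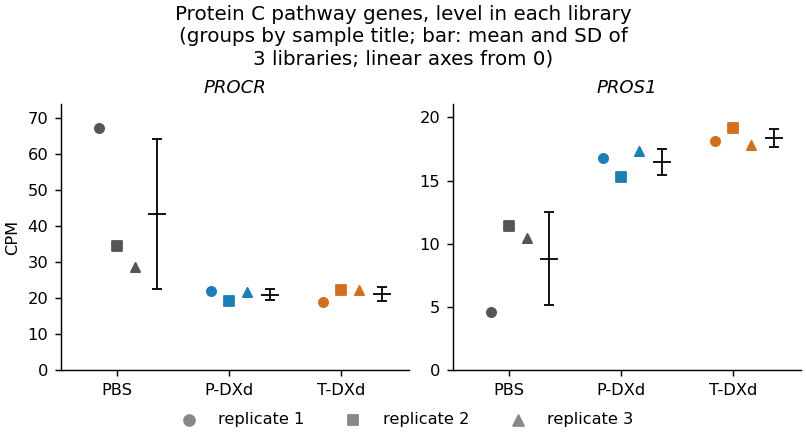
Level of PROCR and PROS1 in every library, in CPM on linear axes that start at 0, with groups by sample title along the x axis. Symbols are the replicates and the bar is the mean and SD of 3 libraries. PBS replicate 1 was highest for PROCR and lowest for PROS1.

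The thrombin and protease receptors F2R and F2RL1 had log2 fold changes of 0.03 ± 0.12 and -0.32 ± 0.09 (edgeR adjusted p = 0.86 and 0.0099), and F10, factor X, had 0.59 ± 0.27 (edgeR adjusted p = 0.087). None of these 3 was called. THBD and F7 were not listed and not analysed here. Macrophages and platelets carry several genes of both systems. The 5 listed of 9 macrophage genes summed to 4.66 to 6.53 CPM in PBS and 12.8 to 24.2 CPM in treated libraries, with ADGRE1, MRC1, CD163 and TYROBP not listed. The 4 listed of 6 platelet genes summed to 3.29 to 3.35 and 1.41 to 2.25 CPM, with PF4 and GP9 not listed. The 7 listed of 9 endothelial genes summed to 5.51 to 10.9 and 6.18 to 11.2 CPM, with PECAM1 and EMCN not listed. Their part in these results was not tested.

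Relatives of SERPINB2 in clade B of the serpins were examined as a further list. Of 12 such relatives, 10 were listed and 9 were tested. Of these, 2 were called lower and none higher, where 17.1% and 15.2% of all genes tested were. The median log2 fold change was 0.03. SERPINB7 had -0.85 ± 0.20 (edgeR adjusted p = 0.0044) and was not called in P-DXd-titled tumors alone against PBS. SERPINB9, an inhibitor of granzyme B, had -1.04 ± 0.30 (edgeR adjusted p = 0.012). Its level was low, at 1.54 to 3.48 CPM in PBS and 0.789 to 1.36 CPM in treated libraries. The SERPINB9 change became -0.53 and was not called without PBS replicate 1, and it was not called in either conjugate group alone against PBS.

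**Figure D4:**
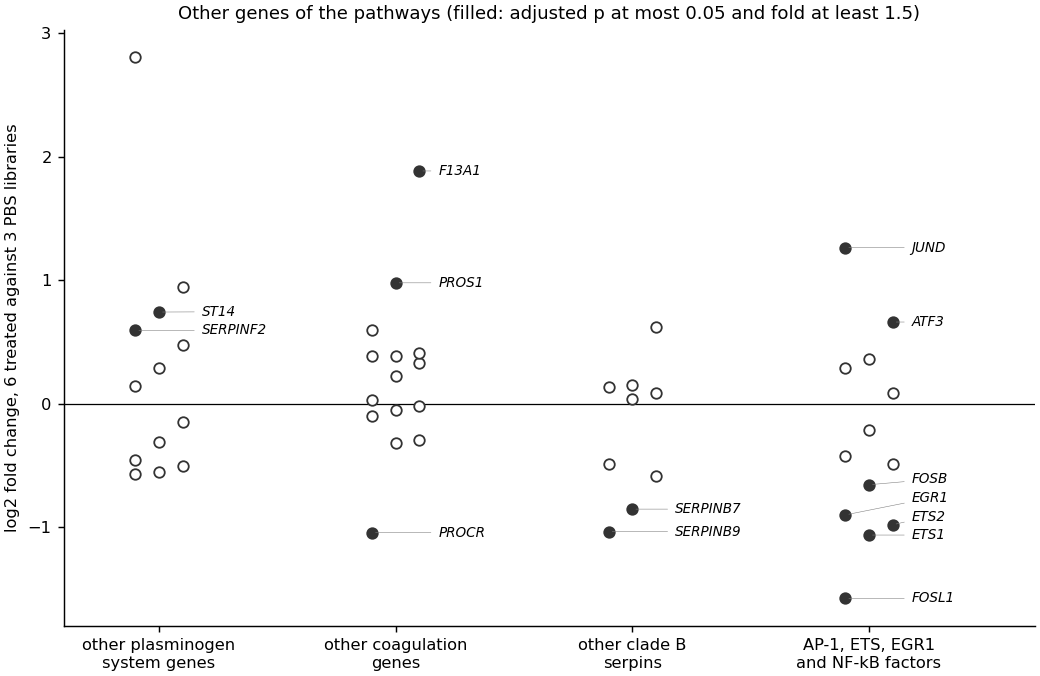
Log2 fold change of all 6 treated libraries against the 3 PBS libraries for the tested genes reported from 4 lists. Filled points, named, passed an edgeR adjusted p of 0.05 and a fold of 1.5, and open points did not. FOSL1, at -1.58, lies lowest of the points drawn; the open point at 2.80 is VLDLR.

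For each of the 9 genes, the gene with the most similar profile over the 9 libraries was identified as the smallest root mean square difference in centred log2 CPM among 12471 genes. Such a ranking is a description and includes the group differences themselves. For F3 it was IL1B, the cytokine interleukin-1 beta, at 0.190 log2 units, with 290.0, 127 and 67.1 CPM in PBS and 14.0 to 27.6 CPM in treated libraries. SERPINB2 was closest to CXCL1, a neutrophil chemokine, at 0.314, TFPI2 to MTHFD2L at 0.213 and TFPI to the lipid transporter ABCA3 at 0.112. ABCA3 had 4.23, 23.7 and 27.9 CPM in PBS and 55.7 to 68.2 CPM in treated libraries, so that PBS replicate 1 was lowest there too. PLAU was closest to FAM208B at 0.065, PLAT to RIN1 at 0.104 and SERPINE2 to DCBLD1 at 0.044. PLAUR and ANXA2, whose own profiles were nearly flat, were closest to SLC6A11 (0.056) and ALG14 (0.019).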

How the data were processed

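RNA-Seq was performed on 9 PC3 xenograft libraries, 3 per group, grouped by sample title. Per the study's methods the authors trimmed reads with Cutadapt, aligned with STAR and counted with featureCounts; the deposited tables hold raw counts per gene. The methods name GRCh38, but listed coordinates differ from it, so they are given as listed; strand use and removal of mouse reads are not stated. The members and gene lists were chosen with earlier results of these data known. Adjusted p-values printed for list genes come from the same libraries and are no independent support. Counts were fitted with edgeR 4.0.16 in R 4.3.3 (TMM, filterByExpr, two-sided quasi-likelihood F test, Benjamini-Hochberg adjustment over all genes tested) on the libraries compared. CPM used TMM over 9 libraries. Profiles were compared among genes averaging 100 counts or more, using a prior count of 2. Beyond the 9 genes, names followed a rule: fixed genes of both systems, up to 3 rises and 3 falls per list, and nearest profiles. Alternatives were DESeq2 1.42.0, RLE factors, other filters, no fold minimum, all libraries in 1 fit, a replicate block and leaving out each library. The script was tested on simulated data. The number of unused columns of per-sample values was 0. P-values measure the spread between libraries, which may be technical. In the plasminogen list, 1 gene is not reported here.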

Additional observations from a re-analysis of the deposited data

How the results depend on the processing

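Among the log2 fold changes of the 9 genes there were 450 values under other settings, of which 427 kept the side of the limits, 6 gained a call and 17 lost it; 11 uncalled values, of PLAUR and ANXA2, changed sign. Members called in P-DXd-titled against PBS ranged from 2 to 6 when each library was left out (5 with all), and in P-DXd-titled against T-DXd-titled from 0 to 1 (0 with all). Fewer libraries were tested in these fits, and the share of all genes called in them was not determined. With a replicate block on a digit in the sample titles, whose meaning the labels do not give and which several libraries of a group share, 5, 4, 6 and 0 members were called in P-DXd-titled, T-DXd-titled and all treated tumors against PBS and between the treated groups; TFPI (1.87) and TFPI2 (-1.63) lost the call in T-DXd-titled tumors. That digit does not pair the libraries, and the share of all genes called under this block was not determined. TFPI2 in P-DXd-titled tumors was called with at least 10 counts in every library (-1.46) and with all 9 libraries in 1 fit (-1.46).

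For list counts DESeq2 gave 3 coagulation genes and 2 clade B serpins in P-DXd-titled tumors (1 and 0 by edgeR). In T-DXd-titled tumors it gave 4 plasminogen genes, 5 coagulation genes and 2 clade B serpins (2, 3 and 1 by edgeR). The cause was not tested. Shares of all genes called by DESeq2 against PBS, or with a library left out, were not determined. Nothing is therefore read from these list counts. Leaving out a library gave, in P-DXd-titled tumors, 1 to 4 plasminogen genes, 0 to 1 coagulation genes, 0 to 1 clade B serpins and 4 to 6 transcription factors. In T-DXd-titled tumors it gave 1 to 3 plasminogen genes, 1 to 3 coagulation genes, 1 to 2 clade B serpins and 3 to 6 transcription factors. Of the other named genes, 19 uncalled values changed sign, all when a library was left out. Over these fits F2R ranged from -0.16 to 0.14 in P-DXd-titled and from -0.038 to 0.077 in all treated tumors against PBS. Between the treated groups the ranges were -0.0048 to 0.11 for ST14, -0.082 to 0.050 for PROCR, -0.018 to 0.13 for ATF3, -0.10 to 0.14 for FOSL1, -0.21 to 0.085 for F2R, -0.076 to 0.082 for F2RL1 and -0.32 to 0.091 for F10. With 3 libraries a group and deep counts, the spread between libraries and not counting error limits precision, and the labels do not state that the libraries came from separate animals.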

Other observations

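Transcription factors of the AP-1, ETS, EGR and NF-kB families were examined as a list. Of 13 such genes, all tested, 7 were called in all treated tumors against PBS, 2 higher and 5 lower, with a median log2 fold change of -0.42. Among all genes tested 15.2% were called higher and 17.1% lower. The list was chosen with earlier results of these data known, so nothing is read from its count. The adjusted p-values below describe genes picked on these values and are no independent support. FOSL1, the AP-1 subunit Fra-1, had 231, 149 and 127 CPM in PBS, 58.2, 66.0 and 47.0 CPM in P-DXd-titled and 55.3, 59.8 and 54.0 CPM in T-DXd-titled libraries. It fell by 1.58 on the log2 scale (SE 0.16, edgeR quasi-likelihood test, Benjamini-Hochberg adjusted p = 2.7e-05), and by 1.28 without PBS replicate 1. ETS1 fell by 1.06 (SE 0.12, edgeR adjusted p = 6.1e-05) and ETS2 by 0.98 (SE 0.20, edgeR adjusted p = 0.0018), the latter by 0.56, under the fold limit, without PBS replicate 1. EGR1 and FOSB, named after their values were seen, fell by 0.90 and 0.66 (edgeR adjusted p = 0.0077 and 0.026). With each conjugate group fitted alone against PBS, EGR1 was not called in T-DXd-titled tumors and FOSB was not called in either group.

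JUND, another AP-1 subunit, rose by 1.26 on the log2 scale (SE 0.12, edgeR adjusted p = 1.4e-05), from 41.3, 56.9 and 59.8 CPM in PBS to 115 to 129 CPM in P-DXd-titled and 129 to 136 CPM in T-DXd-titled libraries. ATF3, a stress-induced factor of the same superfamily, rose by 0.66 (SE 0.08, edgeR adjusted p = 6.4e-05). JUN, JUNB, FOS, FOSL2, NFKB1 and RELA were not called. None of the 13 was called between P-DXd-titled and T-DXd-titled tumors by edgeR, and 0 had an unadjusted p under 0.05. Of all 14653 genes tested there, 4 were called and 540 had an unadjusted p under 0.05, so nothing is read from these counts. Binding of these factors was not measured, so these levels bear on no motif listed in the report.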
